A study of Mus musculus with 15 samples.

Results

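The C/EBP family (CCAAT/enhancer-binding proteins) was followed in bone marrow-derived macrophages (BMDM) of the mouse, with the 6 genes Cebpa, Cebpb, Cebpd, Cebpe, Cebpg and Cebpz taken by their symbols from a table of 23996 genes. All 6 were found. Polyadenylated RNA had been sequenced from 15 libraries in 5 groups of 3: Nelfb KO BMDM (Nelfb fl/fl, Lyz2-Cre) at rest and after 0.5 h of LPS, and WT BMDM (Nelfb +/+, Lyz2-Cre) at rest and after 0.5 h and 1 h of LPS. Every group thus carried Lyz2-Cre, came from the C57BL/6 strain and was grown for 5 days in medium with L929 cell supernatant as the source of macrophage colony stimulating factor. LPS of Escherichia coli was given at 10 ng/ml, and the resting groups received none. The Cre is driven by the lysozyme gene Lyz2, which is active in myeloid cells. The labels give neither the age nor the sex of the mice, and whether each library came from a mouse of its own is not stated there. Nelfb encodes a subunit of the negative elongation factor (NELF), which holds RNA polymerase II in a paused state close to the start of genes.

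C/EBP proteins are basic leucine zipper (bZIP) factors that bind DNA as pairs, with themselves or with one another. C/EBP-alpha (Cebpa) directs the commitment of myeloid progenitors, C/EBP-beta (Cebpb) and C/EBP-delta (Cebpd) act in the inflammatory response of macrophages, and C/EBP-epsilon (Cebpe) acts late in granulocyte formation. C/EBP-gamma (Cebpg) lacks a typical activation domain and serves mostly as a partner, while Cebpz is no bZIP factor but a CCAAT-binding protein of the nucleolus that carries the family's name.

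Sequence before the annotated start is shown for the 3 members with a matched promoter, which was lacking for Cebpd, Cebpe and Cebpz. These 3 genes differed in their pattern over the groups. Cebpb had its highest level in Nelfb KO BMDM with LPS, and Cebpa its lowest in WT BMDM after 1 h of LPS. The level of Cebpg hardly varied. The 250 bases before each start are shown 5′ to 3′ on the strand of the gene, from RefSeq on GRCm38.p6. Capitals mark matches, on either strand, to the core of the cAMP response element (TGACG), the CCAAT box (CCAAT) and the TATA box (TATAAA). Cebpb lies at chr2:167688665-167688914 on the plus strand, Cebpa at chr7:35119043-35119292 on the plus strand, and Cebpg at chr7:35056567-35056816 on the minus strand.
Cebpb: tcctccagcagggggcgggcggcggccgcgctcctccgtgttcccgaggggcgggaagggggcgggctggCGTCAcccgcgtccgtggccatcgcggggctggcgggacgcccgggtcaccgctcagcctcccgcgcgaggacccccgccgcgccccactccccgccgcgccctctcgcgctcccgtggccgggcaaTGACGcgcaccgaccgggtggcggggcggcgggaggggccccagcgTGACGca
Cebpa: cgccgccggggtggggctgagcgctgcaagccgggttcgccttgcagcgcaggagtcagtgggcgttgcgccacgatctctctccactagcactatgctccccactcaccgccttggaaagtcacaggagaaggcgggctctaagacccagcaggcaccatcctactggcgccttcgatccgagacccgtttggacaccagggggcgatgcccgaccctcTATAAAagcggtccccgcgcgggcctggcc
Cebpg: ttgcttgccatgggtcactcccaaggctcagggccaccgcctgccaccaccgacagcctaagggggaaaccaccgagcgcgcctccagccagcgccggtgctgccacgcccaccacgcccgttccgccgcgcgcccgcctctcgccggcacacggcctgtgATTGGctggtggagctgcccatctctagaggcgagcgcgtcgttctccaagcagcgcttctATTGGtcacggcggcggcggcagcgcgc

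The Cebpb sequence held TGACG at 3 places, with first bases at -180, -53 and -7 from the start site, and a GC box (GGGCGG, not in capitals) at 5 places, of which 2 overlap each other. The Cebpa sequence held TATAAA once, with its first base at -30. In the Cebpg sequence CCAAT was found at 2 places, both on the opposite strand, with first bases at -89 and -28. None of the 3 held the C/EBP site TTGCNNAA in this window. Of 32851 promoters of the same length, 17.8% held TGACG, 12.4% TATAAA, 33.8% CCAAT, 32.7% GGGCGG and 9.56% TTGCNNAA on either strand. The share of G and C was 81.6% before Cebpb, 66.4% before Cebpa and 70.8% before Cebpg, against a median of 52.4% over all promoters. These are matches of letters and were not tested as binding sites.

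**Figure D1:**
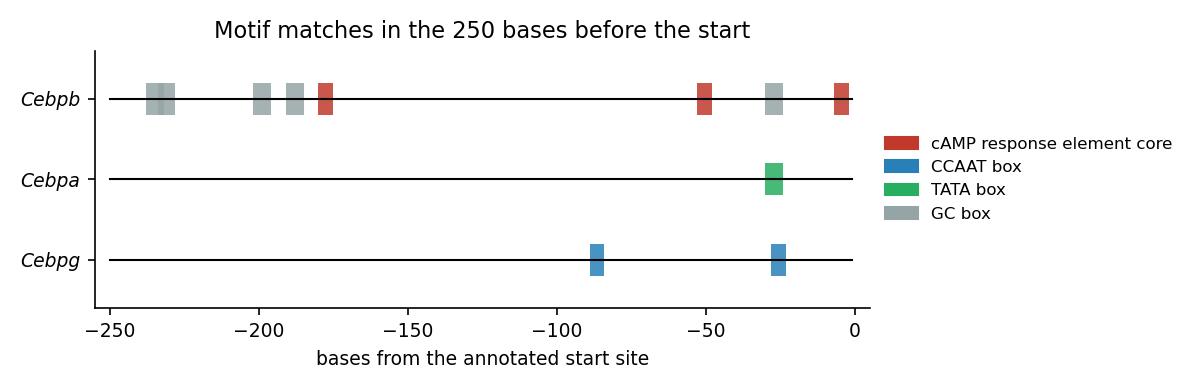
Motif matches in the 250 bases before the annotated start of Cebpb, Cebpa and Cebpg, by distance from the start site in bases. Boxes mark each match on either strand: Cebpb shows 3 cAMP response element cores and 5 GC boxes, Cebpa 1 TATA box and Cebpg 2 CCAAT boxes.

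The values are FPKM, which counts read fragments relative to transcript length and to the mapped reads of a library, given by the authors as 1 average of 3 libraries per gene and group. These averages carry no SD and no depth, and no test was run on them, so each comparison below describes 2 averages. Ratios were formed from FPKM + 1 and are given as log2, and a gene was counted as higher at a ratio of at least 1.4 and as lower at a ratio of at most 0.6. On the log2 scale the lower limit asks for a larger change than the higher limit. The shares of genes past these limits were taken over the 11258 genes that averaged 0.5 FPKM or more across groups, among them 5 of the 6 C/EBP genes, since Cebpe had a mean of 0.384 FPKM.

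Nelfb itself had 5.65 FPKM in resting Nelfb KO BMDM against 21.9 FPKM in resting WT, and 5.55 FPKM against 19.7 FPKM after 0.5 h of LPS. All 7 macrophage markers on the list, among them Adgre1, Csf1r and Cd68, had at least 28.0 FPKM in every group, and their sum lay between 4030 and 4893 FPKM. Of 7 neutrophil markers 6 were in the table, all under 1 FPKM in every group. Some genes of the granulocyte list described further below, which are not among these markers, were higher in every group. S100a8 had 72.5 to 133 FPKM, Mmp8 13.8 to 21.8 FPKM and Mmp9 18.0 to 22.0 FPKM. Markers of T cells, B cells and dendritic cells, mast cells and basophils were also under 1 FPKM, as was the fibroblast gene Pdgfra, whereas Col1a1 and Col1a2, which fibroblasts express strongly, had 3.99 to 6.76 FPKM. The part of other cells in the results was not tested. The resting WT group stood apart from the other 4 groups in transcripts of different length. In resting Nelfb KO against resting WT the median log2 ratio was -0.33 for genes in the lowest 10% by transcript length and 0.15 for those in the highest 10%, and in WT after 0.5 h of LPS against rest it was -0.35 and 0.22. In Nelfb KO after 0.5 h of LPS against rest the medians were 0.03 and 0.01.

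Cebpb and Cebpa had the highest levels of the family in all 5 groups, and Cebpe had the lowest. In resting WT BMDM the order was Cebpb (84.8 FPKM), Cebpa (43.5 FPKM), Cebpz (9.51 FPKM), Cebpd (9.40 FPKM), Cebpg (8.06 FPKM) and Cebpe (0.484 FPKM). In the other 4 groups Cebpd stood before Cebpz, with the rest of the order alike. The spread of single libraries is unknown, so it cannot be said which neighbours in this order differ beyond it. Cebpb took 51.9% of the summed FPKM of the 6 genes in resting Nelfb KO, 54.4% in resting WT, 59.7% in Nelfb KO after 0.5 h of LPS, 52.5% in WT after 0.5 h and 65.3% in WT after 1 h. Among all 23996 genes its place by FPKM was 626 in Nelfb KO after 0.5 h of LPS and 1087 in WT at that time.

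**Figure D2:**
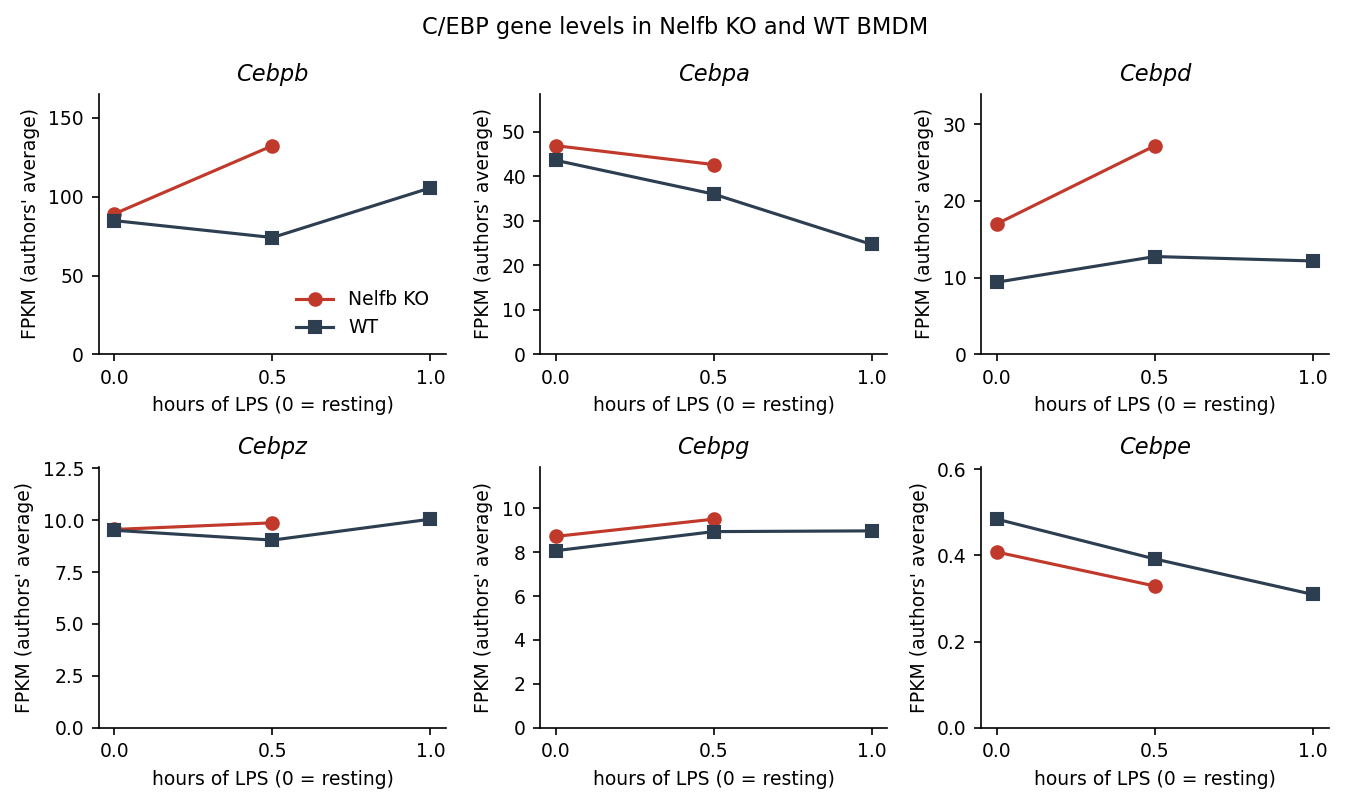
FPKM of each C/EBP gene (the authors' average of 3 libraries, no error available) against hours of LPS, with circles for Nelfb KO and squares for WT BMDM and a scale of its own for each gene. Cebpb stood at 132 FPKM in Nelfb KO and 74.1 FPKM in WT after 0.5 h, Cebpd was higher in Nelfb KO at both times, and Cebpa was lowest in WT after 1 h, at 24.7 FPKM.

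In resting BMDM, Cebpd was the C/EBP gene past a limit between the genotypes. Cebpd, which amplifies the transcription of inflammatory genes in macrophages, had 17.0 FPKM in resting Nelfb KO and 9.40 FPKM in resting WT, a log2 ratio of 0.79. It held place 44 from the top of the 11258 genes in this comparison. Cebpd was thus 1 of 5 C/EBP genes past the higher limit, where 1.63% of all genes were, and 0 of 5 were past the lower limit, where 3.61% of all genes were. The resting level in Nelfb KO was above that of each WT group, as WT had 12.7 FPKM after 0.5 h and 12.2 FPKM after 1 h of LPS. Over the genes in the same class of transcript length as Cebpd the median log2 ratio was 0.04. Set against WT at 0.5 h in place of resting WT, which brings in a difference of LPS, the log2 ratio of Cebpd was 0.39, within the limits. Cebpb had 89.2 FPKM in resting Nelfb KO and 84.8 FPKM in resting WT (log2 ratio 0.07), and Cebpa had 46.8 FPKM and 43.5 FPKM (log2 ratio 0.10). In these bulk samples a smaller number of cells with a transcript and less of it per cell cannot be told apart.

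After 0.5 h of LPS, Cebpb joined Cebpd in being higher in Nelfb KO BMDM. Cebpb, which controls cytokine and acute phase genes downstream of LPS, had 132 FPKM in Nelfb KO and 74.1 FPKM in WT, a difference of 58.3 FPKM and a log2 ratio of 0.83. Cebpd had 27.2 FPKM in Nelfb KO and 12.7 FPKM in WT, a log2 ratio of 1.04. Cebpb held place 99 from the top and Cebpd place 69. With them 2 of 5 C/EBP genes were past the higher limit, against 2.03% of all genes, and 0 of 5 were past the lower limit, against 1.36% of all genes. Cebpa had 42.6 FPKM in Nelfb KO and 36.0 FPKM in WT (log2 ratio 0.24), Cebpg had 9.50 FPKM and 8.93 FPKM (log2 ratio 0.08), and Cebpz had 9.87 FPKM and 9.04 FPKM (log2 ratio 0.11). These differences all lay within the limits. The resting WT group does not enter this comparison, and its median log2 ratio was 0.08 for the lowest 10% of genes by transcript length and -0.04 for the highest 10%.

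**Figure D3:**
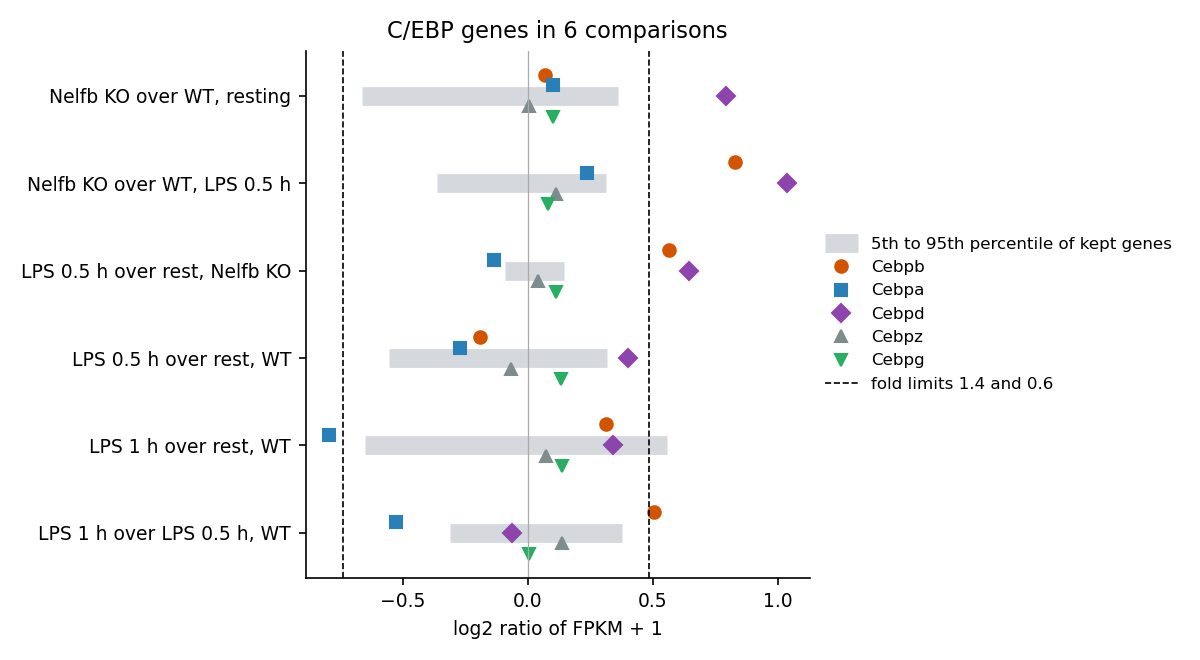
Log2 ratio of FPKM + 1 (x axis) of the 5 C/EBP genes that averaged 0.5 FPKM or more, in 6 comparisons (y axis). Grey bars span the 5th to the 95th percentile of the 11258 genes and dashed lines mark the limits of 1.4 and 0.6: Cebpd lay past the higher limit in both comparisons of genotype and Cebpb in the one at 0.5 h, with a log2 ratio of 0.83.

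In WT BMDM no C/EBP gene was past a limit after 0.5 h of LPS, when 1.09% of all genes were higher and 2.07% lower. Cebpd came nearest, with 12.7 FPKM after 0.5 h against 9.40 FPKM at rest (log2 ratio 0.40). Cebpb had 74.1 FPKM after 0.5 h against 84.8 FPKM at rest (log2 ratio -0.19). Over the genes in the same 10% class of transcript length as Cebpb the median log2 ratio in this comparison was -0.22, close to that of Cebpb itself.

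After 1 h of LPS Cebpa was lower in WT BMDM. It had 43.5 FPKM at rest, 36.0 FPKM after 0.5 h and 24.7 FPKM after 1 h, a log2 ratio of -0.80 at 1 h against rest. This was place 274 from the bottom of the 11258 genes, and Cebpa was 1 of 5 C/EBP genes past the lower limit, against 3.22% of all genes. In WT at 1 h against rest 0 of 5 were past the higher limit, against 6.26% of all genes, since Cebpb had 106 FPKM after 1 h against 84.8 FPKM at rest (log2 ratio 0.31) and Cebpd had 12.2 FPKM against 9.40 FPKM (log2 ratio 0.34). With the trend over transcript length taken off, Cebpb at 1 h against rest had a log2 ratio of 0.56, past the higher limit. From 0.5 h to 1 h, a comparison without the resting WT group, Cebpb had 106 FPKM at 1 h against 74.1 FPKM at 0.5 h. This was a ratio of 1.42, barely past the higher limit, which 4.17% of all genes passed, and the call was lost with median scaling (log2 ratio 0.48) and quantile normalization (log2 ratio 0.36). Cebpa had 24.7 FPKM at 1 h against 36.0 FPKM at 0.5 h, a log2 ratio of -0.53 and place 171 from the bottom, yet within the limits. The log2 ratio of Cebpb was 0.51, so the calls differ because the lower limit asks for a larger log2 change. Past the lower limit in this comparison were 0 of 5 C/EBP genes and 0.693% of all genes. The FPKM of Cebpb was 1.95 times that of Cebpa in resting WT, 2.06 times after 0.5 h and 4.29 times after 1 h.

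In Nelfb KO BMDM both Cebpb and Cebpd were higher after 0.5 h of LPS than at rest. Cebpb had 132 FPKM after 0.5 h against 89.2 FPKM at rest (log2 ratio 0.56), and Cebpd had 27.2 FPKM against 17.0 FPKM (log2 ratio 0.65). Cebpb held place 136 from the top and Cebpd place 126. In this comparison 2 of 5 C/EBP genes were past the higher limit, against 1.32% of all genes, and 0 of 5 past the lower limit, against 0.222% of all genes. Cebpa had 42.6 FPKM after 0.5 h against 46.8 FPKM at rest, a log2 ratio of -0.13. With 132 FPKM, Cebpb in Nelfb KO after 0.5 h also stood above the 106 FPKM of WT after 1 h.

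The response of Cebpb to 0.5 h of LPS differed most among the members, with a log2 ratio of 0.56 in Nelfb KO and -0.19 in WT BMDM, a difference of 0.76. This difference took place 331 from the top of the 11258 genes, over which the median was 0.02. With the median of each 10% class of transcript length taken off, the log2 ratio was 0.55 in Nelfb KO and 0.03 in WT, which turns the sign in WT and leaves a difference of 0.52. For Cebpd the response was 0.65 in Nelfb KO and 0.40 in WT, a difference of 0.25 at place 2566. The differences of Cebpa, Cebpg and Cebpz were 0.14, -0.02 and 0.11. Whether any response differed by genotype was not tested. Over all genes the 5th and the 95th percentile of the response were -0.09 and 0.15 in Nelfb KO and -0.56 and 0.32 in WT.

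**Figure D4:**
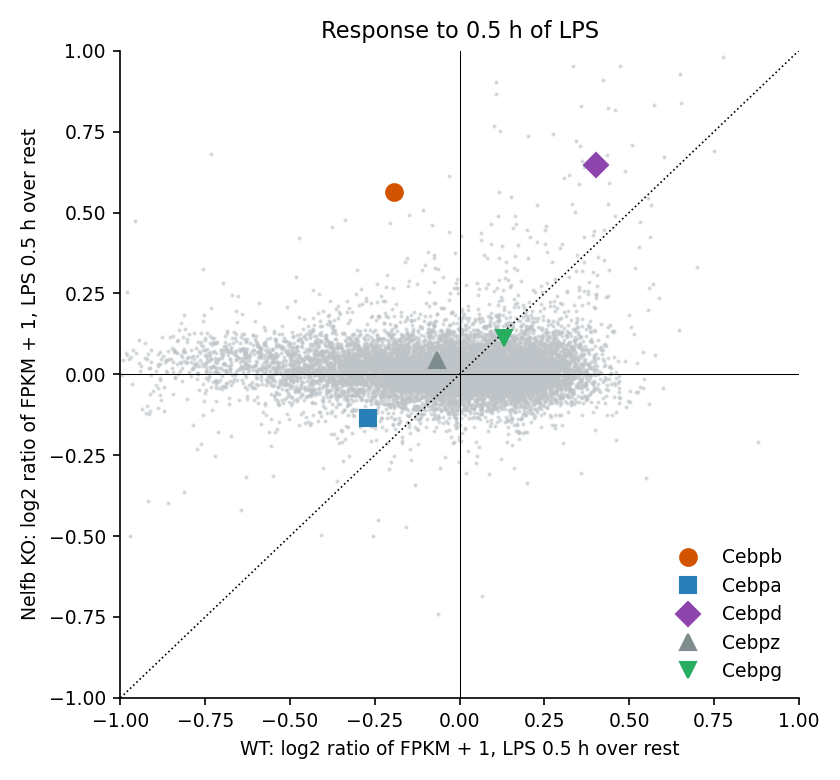
Log2 ratio of FPKM + 1 after 0.5 h of LPS over rest, in Nelfb KO (y axis) against WT BMDM (x axis), for 11067 of 11258 genes as grey points (the other 191 lie outside the axes) and for 5 C/EBP genes as large markers. The dotted line marks equal responses: Cebpb lies at 0.56 in Nelfb KO and -0.19 in WT, and the genes spread more widely along the WT axis.

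The remaining members varied little or were near the floor. Cebpg had 8.06 to 9.50 FPKM over the 5 groups, so that its highest value was 1.18 times its lowest, and Cebpz had 9.04 to 10.0 FPKM, a ratio of 1.11. For comparison, the highest value was 2.89 times the lowest for Cebpd, 1.90 times for Cebpa and 1.79 times for Cebpb. Cebpg and Cebpa lie on chromosome 7, 62720 bases apart, and differed in pattern as described above. Cebpe had 0.408 FPKM in resting Nelfb KO against 0.484 FPKM in resting WT, and 0.329 FPKM against 0.392 FPKM after 0.5 h of LPS. In WT after 1 h it had 0.309 FPKM. At such levels a ratio of FPKM + 1 understates changes, and none is given.

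Most members are short genes with few exons. In GENCODE M21 on GRCm38, the longest coding transcripts of Cebpa (chromosome 7, 35119293 to 35121928), Cebpb (chromosome 2, 167688915 to 167690418) and Cebpd (chromosome 16, 15887286 to 15891031) have 1 exon, with lengths of 2626, 1504 and 3746 nt. Those of Cebpe (chromosome 14, 54710360 to 54712174) and Cebpg (chromosome 7, 35046422 to 35056573) have 2 exons, and that of Cebpz (chromosome 17, 78919006 to 78937066) has 16. Cebpd overlaps the gene Spidr on the opposite strand over 1808 nt, and the table gives both genes the same locus. If reads were counted without regard to strand, reads of the overlap could have come from either gene. The strand of the libraries is not stated, and the alignment options listed in the methods name none. Spidr, which acts in DNA repair, had 7.57 FPKM in resting Nelfb KO against 7.15 FPKM in resting WT, and 7.89 FPKM against 8.04 FPKM after 0.5 h of LPS, with log2 ratios of 0.07 and -0.02. Cebpz likewise overlaps Cebpzos over 1301 nt. Cebpzos had 9.29 FPKM in resting Nelfb KO against 7.82 FPKM in resting WT, and 8.95 FPKM against 6.72 FPKM after 0.5 h.

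The genes most like each member in pattern were those with the smallest distance over 4 log2 ratios to resting WT, among 10509 genes that averaged 1 FPKM or more. Since there are 5 averages in all, a small distance says little for flat genes. Nearest to Cebpd were Thbd (distance 0.32), which encodes thrombomodulin, Lyz2 (0.35), the lysozyme gene whose locus drives the Cre, and the early response gene Ier5 (0.56). Lyz2 had 41.6 FPKM in resting Nelfb KO against 19.7 FPKM in resting WT, and 55.5 FPKM against 23.3 FPKM after 0.5 h. The paper does not give the number of Cre copies in each genotype, and whether the Cre bears on the Lyz2 values was not tested. For Cebpb the nearest were Igfbp7 (0.36), Ifitm1 (0.36) and the costimulatory ligand Cd80 (0.39), all at lower levels, from 3.39 to 7.07 FPKM. Nearest to Cebpa were Ormdl3 (0.10), a regulator of sphingolipid synthesis, Tcta (0.13) and 3110062M04Rik (0.15). Ormdl3 had 7.48 FPKM in WT after 1 h against 13.0 FPKM at rest. Nearest to the flat genes were Snapc1, Rsf1 and Ranbp10 for Cebpg and Rcsd1, Trafd1 and Ube2k for Cebpz, at distances of 0.04 to 0.05.

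Of 12 genes listed as partners or regulators of C/EBP factors, 10 averaged 0.5 FPKM or more. In resting Nelfb KO against WT, 0 were past the higher limit (1.63% of all genes) and 1 past the lower (3.61% of all genes), with a median log2 ratio of -0.36 against -0.02 over all genes. The lower gene was Ddit3, a bZIP protein that pairs with C/EBP factors under stress, with 13.1 FPKM in resting Nelfb KO and 23.6 FPKM in resting WT. The other groups had 11.0 to 14.0 FPKM of Ddit3, so that resting WT alone stood high. Atf5, another bZIP factor, had 13.4 FPKM in resting Nelfb KO and 22.5 FPKM in resting WT, a log2 ratio of -0.71 within the limits. Atf5 too was highest in resting WT, with 12.7 to 16.3 FPKM in the groups given LPS. The list also had a low median, -0.19, in WT after 0.5 h of LPS against rest. Both comparisons rest on the resting WT group, and the part of transcript length in them was not tested. After 0.5 h of LPS 1 gene was higher in Nelfb KO than in WT (2.03% of all genes) and 0 lower (1.36%), with a median of -0.06 against 0.01 over all genes. This was Trib1, whose protein leads C/EBP-alpha to degradation, with 20.0 FPKM in Nelfb KO and 13.6 FPKM in WT (log2 ratio 0.52). In WT after 1 h against rest 2 of the 10 were higher (6.26% of all genes) and 1 was lower (3.22%), with a median of -0.28 against -0.02. Trib1 had 26.2 FPKM after 1 h against 11.5 FPKM at rest, and the bZIP repressor Nfil3 had 12.8 FPKM against 6.57 FPKM, while Ddit3 had 11.0 FPKM against 23.6 FPKM. In WT after 0.5 h against rest 0 of the 10 were past either limit (1.09% of all genes higher, 2.07% lower), and in Nelfb KO after 0.5 h against rest 1, again Trib1, was higher (1.32% of all genes).

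A second list held 16 genes known to be bound or controlled by C/EBP factors in myeloid cells, of which 15 averaged 0.5 FPKM or more. Many of them also answer to NF-kB. In resting Nelfb KO against WT 1 was higher, Arg1 (1.63% of all genes were), and 1 lower, Lcn2 (3.61% of all genes were), with a median log2 ratio of 0.05 against -0.02 over all genes. Arg1, an arginase of alternatively activated macrophages, had 11.3 FPKM in resting Nelfb KO and 4.03 FPKM in resting WT, and Lcn2, the iron carrier binding protein lipocalin, had 6.64 FPKM and 14.4 FPKM. After 0.5 h of LPS 6 of the 15 were higher in Nelfb KO than in WT (2.03% of all genes) and 0 were lower (1.36%), with a median of 0.26 against 0.01. The cytokine gene Il1b had 59.9 FPKM in Nelfb KO and 20.6 FPKM in WT, and Ptgs2, the inducible prostaglandin synthase, had 11.6 FPKM and 4.70 FPKM. Il6 had 3.75 FPKM in Nelfb KO and 1.75 FPKM in WT, and the granulocyte growth factor gene Csf3 had 2.49 FPKM and 0.733 FPKM. The others were Arg1 and Il10. Il10 was barely past the higher limit, with 30.4 FPKM in Nelfb KO and 21.3 FPKM in WT (log2 ratio 0.49). The counts of the lists were not repeated under other settings.

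In WT, 5 of the 15 were higher after 0.5 h than at rest, against 1.09% of all genes, with a median of 0.06 against 0.00 over all genes. After 1 h 9 of the 15 were higher than at rest, against 6.26% of all genes, with a median of 2.55 against -0.02. Among the 9 was Il12b, which passed the filter at a mean of 0.5 FPKM only through WT after 1 h. It had 8.48 FPKM there and at most 0.440 FPKM in any other group, so its place in this count was partly set by the filter. At either time 0 were lower, against 2.07% of all genes at 0.5 h and 3.22% at 1 h. Il6 had 78.3 FPKM after 1 h against 0.308 FPKM at rest. In Nelfb KO 6 of the 15 were higher after 0.5 h than at rest, against 1.32% of all genes, and 0 lower, against 0.222%, with a median of 0.16 against 0.01. The comparisons share groups, and the list was drawn up with earlier results of these libraries known, so these counts are no independent evidence about C/EBP activity.

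**Figure D5:**
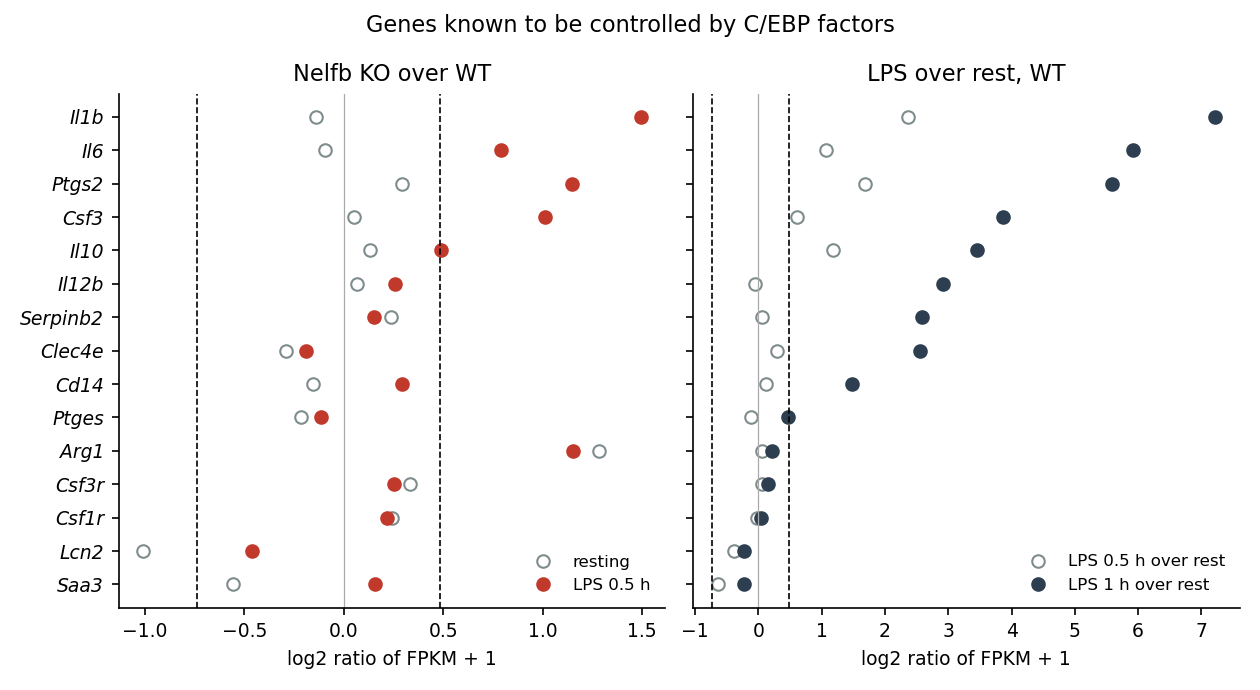
Log2 ratio of FPKM + 1 (x axis) of 15 genes known to be controlled by C/EBP factors (y axis, ordered by the ratio at 1 h in WT), on the left for Nelfb KO over WT at rest (open) and after 0.5 h of LPS (filled), on the right for WT after 0.5 h (open) and 1 h (filled) over rest. Dashed lines mark the limits of 1.4 and 0.6: 6 genes lie past the higher limit in Nelfb KO after 0.5 h, and 9 in WT after 1 h. Among these 9, Il12b passed the filter on mean FPKM only through WT after 1 h.

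The third list held 13 genes of granulocytes, the cells in which Cebpe acts. Of these 12 were in the table and 4 averaged 0.5 FPKM or more, namely Mmp8, Mmp9, S100a8 and S100a9. The primary granule genes Mpo, Elane, Prtn3 and Ctsg were at most 0.428 FPKM in every group, and Camp, Ltf and Ngp, which depend on Cebpe in granulocytes, at most 0.608 FPKM. S100a8 had 133 FPKM in Nelfb KO and 72.5 FPKM in WT after 0.5 h of LPS (log2 ratio 0.86), whereas its partner S100a9 had 0.837 FPKM and 0.659 FPKM. Mmp8 had 21.8 FPKM in resting Nelfb KO and 13.8 FPKM in resting WT (log2 ratio 0.62), and Mmp9 had 21.7 FPKM and 18.4 FPKM (log2 ratio 0.23).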

How the data were processed

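RNA-seq of 15 BMDM libraries in 5 groups of 3, assigned by the genotype and LPS time in the sample labels, was used. Per the submitters' notes and methods, the authors used CASAVA 1.8, kept unique alignments to mm10 from TopHat2 2.1.0, and Cuffdiff of Cufflinks 2.2.1 gave FPKM. FPKM was deposited by the authors as 1 average per gene and group, so values carry no error and unknown depth. Not used were 12 columns of the authors' own comparisons (ratios, p-values and q-values) and 3 repeated group columns.

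Log2 ratios were computed from FPKM + 1 in Python 3.11.15 (numpy 2.4.6, pandas 2.3.3), which understates changes of low genes. The limits of 1.4 and 0.6 follow the study's fold limits without its p. Genes named are all members, the 3 genes nearest to each member with a mean of at least 1 FPKM, and up to 4 genes a list. Those of a list were the genes past the limits in most comparisons, with ties ordered by the largest absolute log2 ratio. Atf5 and Mmp9 were named in this way though past no limit. Il10, Arg1, Lcn2, the markers, the overlapping neighbours and single granule genes were added for context after their values were seen. Members and lists were chosen with earlier results of these data known. Adgre1 was matched through an older symbol, and 1 listed gene, Ly6g, was not analysed here. Transcript lengths came from GENCODE M21 and covered 95.3% of kept genes. Promoters were matched for 3 members (Cebpa, Cebpb, Cebpg), not for Cebpd, Cebpe and Cebpz. Ratio, scaling and distance functions were tested on simulated data. Alternatives were another pseudocount, other filters, median scaling, quantile normalization and other fold limits, and, chosen after seeing the data, removal of the transcript length trend and another reference group.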

Additional observations from a re-analysis of the deposited data

How the results depend on the processing

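No count or side of a limit changed with a pseudocount of 0.1 FPKM, without a filter, or with a filter at a mean of 1 FPKM. With limits of 2 and 0.5 the number of higher members was 0 in resting Nelfb KO against WT, 1 (Cebpd) at 0.5 h, 0 in WT from 0.5 h to 1 h and 0 in Nelfb KO after LPS, and the number of lower members in WT at 1 h against rest was 0. With limits of 1.5 and its inverse it was 0 in WT from 0.5 h to 1 h and 1 (Cebpd) in Nelfb KO after LPS. Cebpb in WT from 0.5 h to 1 h also dropped below 1.4 with median scaling (log2 ratio 0.48) and quantile normalization (0.36), leaving 0 members. Removing the median of each 10% class of genes by transcript length, chosen after seeing the data, made Cebpb past the higher limit in WT at 1 h against rest (0.56, 1 member) and its difference in response 0.52. With WT at 0.5 h as reference for resting Nelfb KO, also chosen after seeing the data, 0 members were higher (Cebpd 0.39). The cause of these shifts was not tested, except that stricter limits pass fewer genes by construction. No direction turned round among ratios past a limit. The planned use of the repeated group columns was not run. No paired analysis was possible because the table holds averages of each group, which carry no replicate numbers; for the same reason no library could be left out, and the missing depth limits every value.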
